A study of Bos taurus with 2 samples.

Results

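The distal chromosome ends studied here are the last 5 Mb of each of the 29 bovine autosomes, in the H3K4me3 map of the longissimus dorsi (LD), the loin muscle of the carcass. Bovine autosomes carry the centromere at the start of their numbering, so the end of the numbering is the telomeric side. Peaks of the tender and tough groups that overlapped by at least 1 bp were merged into regions, the last peak end in either group was taken as the end of a chromosome, and a region belonged to a distal end when its centre lay less than 5 Mb before it. This gave 1262 regions of the 14264 in the whole map. The rule used positions only. Their numbers, lengths, scores and reads, and the group in which they were called, did not enter it.

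H3K4me3 was measured by ChIP-Seq in purebred Aberdeen Angus steers of about 12 months of age. The tender group was 1 library of chromatin pooled from 4 steers with a Warner-Bratzler shear force, the force that cuts a cooked core of the meat, of 6.77 ± 0.56 kg. The tough group was 1 library pooled from 5 steers with a shear force of 19.93 ± 0.39 kg. Both groups were chosen for these values among 19 steers, no treatment is named, and the kind of error behind the ± is not given in the sources used here. With 1 pooled library per group the spread between steers is not known, and no difference between tender and tough LD has a replicate check.

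H3K4me3, the trimethylated form of lysine 4 on histone H3, is placed at the promoters of active genes and at CpG islands. It is read by factors that recruit the transcription machinery, and its peaks in muscle mark the promoters in use in the fibres and in the other cells of the tissue. The ends of mammalian chromosome arms are known for high gene density and high GC content. The lists hold no gene names and state no genome assembly, so the regions are given by position as in the lists, counted from 1, and the label of the tissue was not checked against muscle genes.

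The 1262 regions lay on all 29 distal ends, as the map of the regions by chromosome shows. Their number did not step at the inner limit. The 0.5 Mb just inside the limit held 108 regions and the 0.5 Mb just outside held 107. The median summed score, which adds the scores of the tender and tough peaks in a region, was 59.5 just inside and 77.8 just outside. The share called in both groups was 48.1% just inside and 68.2% just outside, and a region called in 1 group adds only that group's score to the sum. In bins of 1 Mb the difference in this share was smaller. It was 54.5% (Wilson interval 47.9 to 60.9%) at 4 to 5 Mb from the end. At 5 to 6 Mb it was 63.5% (56.7 to 69.9%), and at 6 to 7 Mb 61.8%. The intervals of the 1 Mb bins on the 2 sides of the limit overlapped. No interval was computed for the shares in 0.5 Mb, and whether sharing steps at the limit was not tested.

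**Figure D1:**
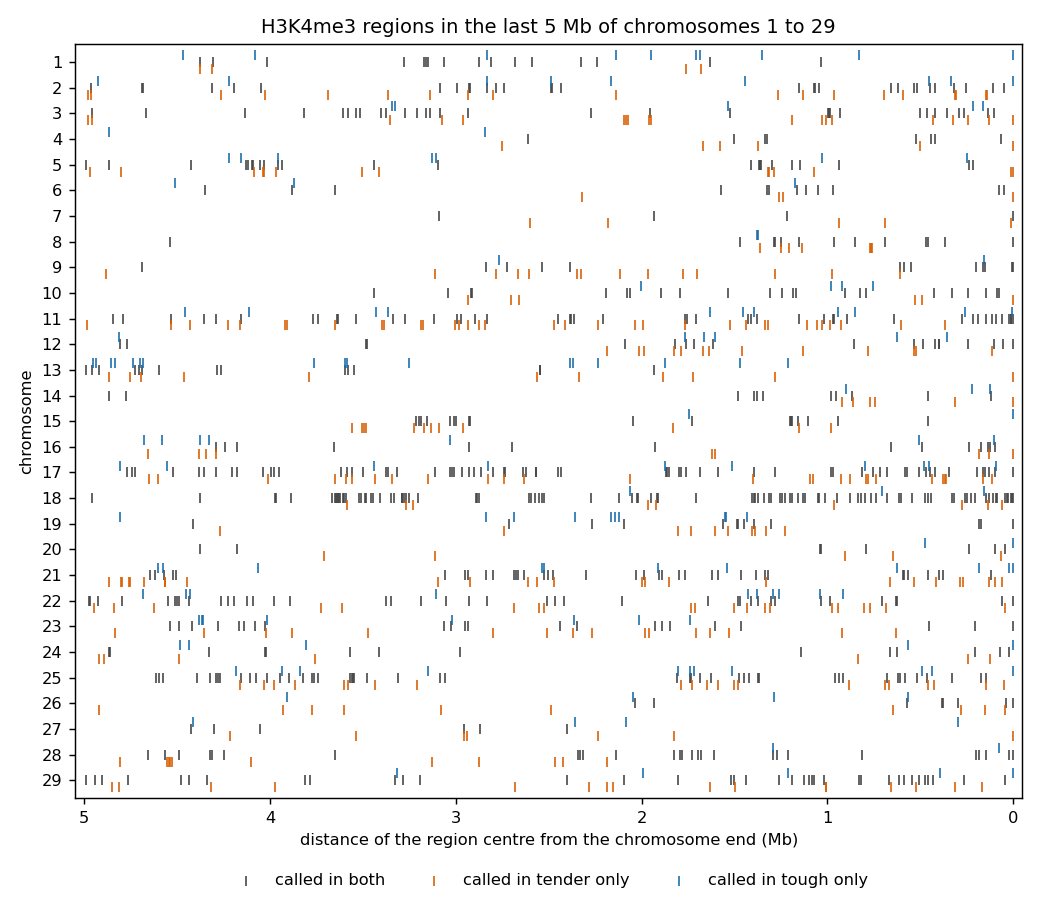
Each tick is a merged H3K4me3 region, placed by the distance of its centre from the end of its chromosome in Mb (horizontal axis) and by chromosome (vertical axis), with colours and small vertical shifts for regions called in both groups, in tender only or in tough only. The rows of chromosomes 17 and 18 hold 103 and 109 ticks, and the row of chromosome 7 holds 9.

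The question of the first comparison was whether the mark was denser at the distal ends than in the rest of the same chromosomes. The distal ends held 8.70 regions per Mb (95% exact Poisson interval 8.23 to 9.20, which covers counting error only), against 5.36 (5.26 to 5.45) over the remaining 2361.8 Mb. They made up 9.07% of the regions on 5.78% of the length. The density was higher than in the rest on 23 of 29 chromosomes (exact two-sided sign test over chromosomes, Benjamini-Hochberg adjusted p = 0.00463 over 20 tests). A merged count also rises where the groups share fewer regions, and 57.0% were called in both at the distal ends against 70.2% in the rest. The merged density is therefore not separate from the sharing between groups given further on. The end of each chromosome is set by a peak, and with the last 0.5 Mb left out the density was higher on 20 of 29 chromosomes and no longer passed (adjusted p = 0.117, exact sign test). The call also depended on the weaker peaks. When only peaks scoring 2 or more times the minimum of their own list were kept, the density was higher on 15 of 29 chromosomes (adjusted p = 1, exact sign test), and at 4 times the minimum on 11.

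Each group alone showed a smaller difference. Tender peaks had a density of 7.69 per Mb at the distal ends and 4.87 in the rest, higher on 20 of 29 chromosomes (adjusted p = 0.0945, exact sign test). Tough peaks had 6.23 and 4.39 per Mb, higher on 18 (adjusted p = 0.331, exact sign test). Neither group alone passed the threshold of 0.05. Tender peaks covered 1.66% of the distal base pairs against 1.08% of the rest, and tough peaks 1.72% against 1.2% (higher on 20 and 19 chromosomes, adjusted p = 0.0945 and 0.181, exact sign tests).

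The distal ends differed widely among themselves, from 1.8 to 21.8 regions per Mb with a median of 6.6 and an SD of 5.40 over 29 chromosomes. The rest of the chromosomes ranged from 2.37 to 16 with an SD of 3.14. The 5 densest distal ends were those of chromosome 18 with 21.8 per Mb (95% exact Poisson interval 17.9 to 26.3), chromosome 17 with 20.6 (16.8 to 25), chromosome 11 with 18.2 (14.7 to 22.3), chromosome 25 with 16 (12.7 to 19.9) and chromosome 21 with 14.8 (11.6 to 18.6). These 5 held 457 of the 1262 regions, or 36.2%. The intervals of neighbours in this order overlapped, so these counts do not settle the order of neighbours. Ends further apart in the order were not tested against each other.

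The 5 sparsest distal ends were those of chromosome 7 with 1.8 per Mb (0.823 to 3.42), chromosome 20 with 3.0 (1.68 to 4.95), chromosome 4 with 3.2 (1.83 to 5.20), chromosome 27 with 3.4 (1.98 to 5.44) and chromosome 6 with 3.8 (2.29 to 5.93). Their intervals also overlapped. The highest of the sparse values, that of chromosome 6, had an upper bound below the lower bound of each of the 5 densest ends.

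Relative to the rest of its own chromosome, the distal end of chromosome 17 stood highest, with 3.87 times the density, followed by chromosomes 21 (3.40), 12 (3.21), 11 (3.07) and 2 (2.84). At least 2 times the density was reached on 6 chromosomes, and 6 were below 1. The ends of chromosomes 7 and 19 were far below their own chromosomes. Chromosome 7 had 1.8 regions per Mb at its end and 7.49 in the rest, a ratio of 0.240, and chromosome 19 had 6.6 and 16, a ratio of 0.412. The other 4 were close to their chromosomes or moderately lower, with ratios of 0.781 on chromosome 26, 0.952 on chromosome 4, 0.967 on chromosome 20 and 0.98 on chromosome 27. Over the 29 chromosomes, the densities of the end and of the rest had a Pearson's r of 0.40 and a Spearman's rho of 0.52, a description of points that share both libraries.

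**Figure D2:**
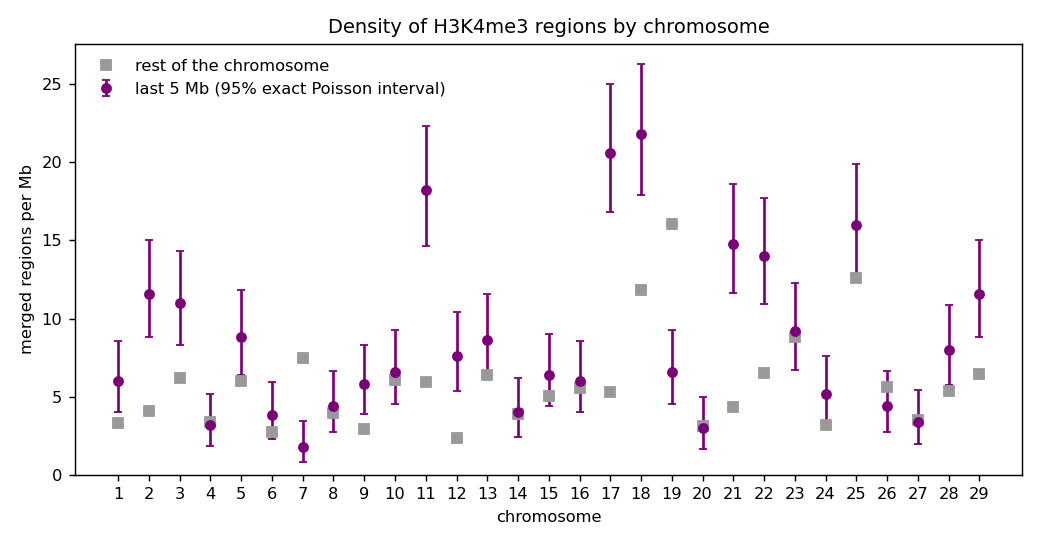
Merged regions per Mb (vertical axis) in the last 5 Mb, with 95% exact Poisson intervals, and in the rest of the same chromosome (squares), for chromosomes 1 to 29 (horizontal axis). The distal value lies above the rest on 23 of 29 chromosomes and far below it on chromosomes 7 and 19.

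Within the distal ends the regions were crowded towards the tip. The last 1 Mb held 358 regions, or 12.3 per Mb (95% exact Poisson interval 11.1 to 13.7), the next Mb 9.93, and the 3 further bins between 6.76 and 7.66. The last 2 Mb together held 646 of the 1262 regions, or 51.2%. One region per chromosome lies at the tip by definition, since it sets the end. Without these 29 regions the last 1 Mb still held 329, or 11.3 per Mb (10.2 to 12.6).

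Further inward the density rose again, to between 10.7 and 11 per Mb at 8 to 11 Mb from the end. In these counts, pooled over the chromosomes, the limit of 5 Mb lay in a trough between a maximum at the tip and a second, broader one. Whether single chromosomes follow this shape was not tested. Against the 5 Mb just before them, the distal ends were denser on 14 chromosomes and sparser on 14 (adjusted p = 1, exact sign test). With the last 2 Mb in place of 5 Mb, tender peaks alone were denser than the rest on 23 chromosomes and tough peaks alone on 24 (adjusted p = 0.00314 and 0.00115, exact sign tests).

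**Figure D3:**
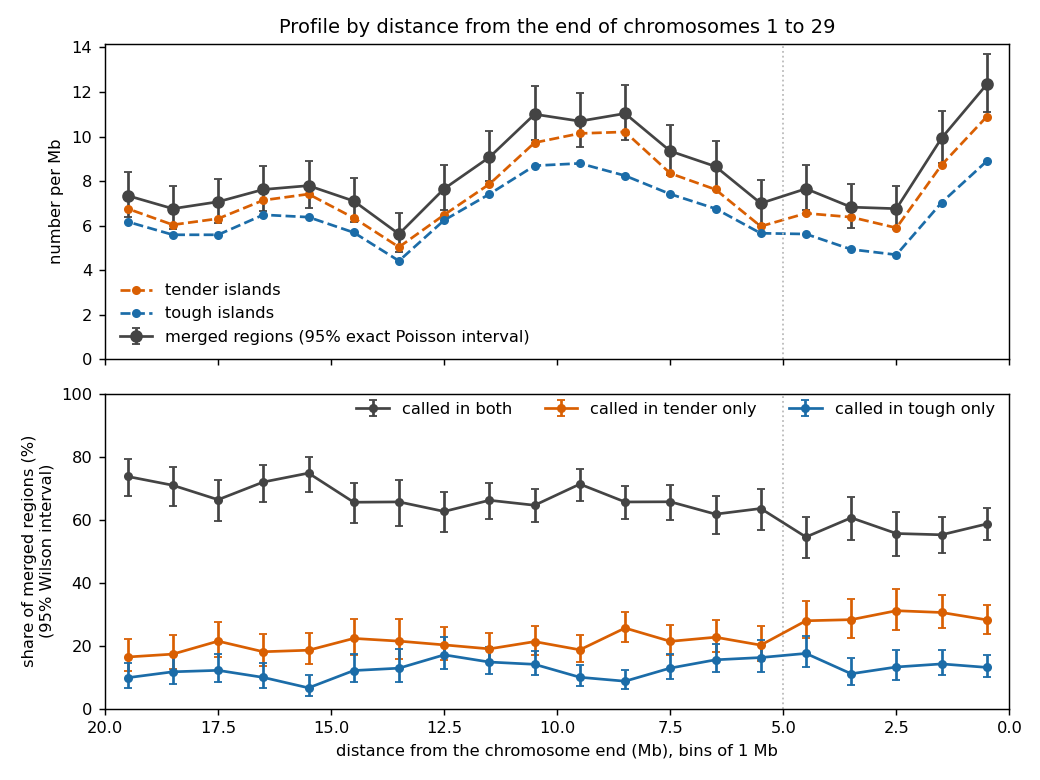
Upper panel, numbers per Mb (vertical axis) of merged regions with 95% exact Poisson intervals and of tender and tough peaks, in bins of 1 Mb by distance from the end over chromosomes 1 to 29 (horizontal axis, the end on the right, dotted line at 5 Mb). Lower panel, the share of merged regions called in both groups, in tender only and in tough only in the same bins with 95% Wilson intervals, where the share in both stays between 54.5% and 60.6% within the last 5 Mb and the density peaks at 12.3 per Mb in the last bin.

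The crowding differed between chromosome ends. Of the distal bins of 1 Mb, 12 held no region, and the median bin held 7. The fullest was the last Mb of chromosome 18 with 37 regions, of which 31 were called in both groups. It was followed by the last Mb of chromosome 17 with 34 regions, 19 of them in both groups. Next were the bin at 3 to 4 Mb from the end of chromosome 18 with 31 regions, the bin at 1 to 2 Mb of the same chromosome with 24, and 2 bins with 23, the last Mb of chromosome 11 and the bin at 3 to 4 Mb on chromosome 25.

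Distal regions lay closer together in the pool, with a median distance to the next region of 34000 bp (quartiles 11400 and 94600) against 49400 bp (15000 and 141600) in the rest. The distance was shorter on 19 of 29 chromosomes and longer on 10 (adjusted p = 0.181, exact sign test). It was shorter on 22 with the last 10 Mb and on 21 against the rest without the first 5 Mb (adjusted p = 0.0154 and 0.0382, exact sign tests), so the call depended on the window and on the comparison. The shortest median distance, 14400 bp, was at the end of chromosome 18, and the longest, 349300 bp, at the end of chromosome 7.

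The first 5 Mb of the same chromosomes, on the centromeric side, were used as the other chromosome end. They held 730 regions, 5.03 per Mb (4.68 to 5.41). The distal end was denser than the centromeric end on 23 of 29 chromosomes (adjusted p = 0.00463, exact sign test). The exceptions were chromosomes 7, 14, 16, 20, 24 and 25, among them chromosome 7 with 1.8 distal against 16.2 centromeric regions per Mb and chromosome 25 with 16 against 27.6. The first 5 Mb start at position 1 and can open with sequence that holds no peak, whereas the distal window ends at a peak.

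The second question was how strongly the distal regions were marked. SICER, the caller behind the lists, scores each window of 200 bp by how improbable its reads are given the mean of the genome and adds the windows of a peak, so that the number of reads can be computed back from the score up to a score of 180. This gave the reads of 1083 of the 1115 distal tender peaks and 889 of the 904 distal tough peaks, and the others scored above 180. A distal tender peak had a median of 18 reads (quartiles 13 and 27) and a tender peak elsewhere 23 (14 and 36). A distal tough peak had a median of 20 reads (15 and 29) and a tough peak elsewhere 24 (16 and 35).

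Distal peaks were thus the weaker ones in both groups. The median reads of tender peaks were lower at the end than in the rest on 27 of 29 chromosomes, with chromosomes 18 and 24 as the exceptions (adjusted p = 4.64e-06, exact sign test). Those of tough peaks were lower on 25, all but chromosomes 10, 15, 16 and 18 (adjusted p = 0.000259, exact sign test). The median score was 44.7 at the distal ends and 62.0 elsewhere for tender peaks, and 47.1 and 59.2 for tough peaks, lower on 27 and 28 chromosomes (adjusted p = 4.64e-06 and 7.45e-07, exact sign tests).

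Length did not move with this beyond the spread between chromosomes. The median length of tender peaks was 2000 bp both at the distal ends and in the rest, with 8 chromosomes higher, 11 lower and 10 equal (adjusted p = 0.72, exact sign test). Tough peaks had medians of 2600 bp and 2400 bp, with 14 chromosomes higher and 11 lower (adjusted p = 0.726, exact sign test). The score per window of tender peaks was 5.23 at the distal ends and 6.74 in the rest, and that of tough peaks 3.95 and 5.20. It was lower on 28 chromosomes for tender and on 27 for tough peaks (adjusted p = 7.45e-07 and 4.64e-06, exact sign tests). Chromosome 18 went against this in both groups, and chromosome 15 in the tough group.

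Sorted by reads, the distal excess was greatest below 17 reads, shrank from there on and ended below 1 at 40 reads or more. Tender peaks of 8 to 12 reads had a density of 1.85 per Mb at the distal ends and 0.843 in the rest, a ratio of 2.19. The ratio was 2.28 for 13 to 16 reads, 1.72 for 17 to 24 and 1.21 for 25 to 39. For tender peaks of 40 reads or more, the distal density of 0.807 per Mb was 0.833 times that of the rest, 0.969 per Mb.

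The tough group followed the same order. Its ratios were 1.98 for 9 to 12 reads, 2.05 for 13 to 16, 1.53 for 17 to 24, 1.23 for 25 to 39 and 0.750 for 40 or more. These classes are a description in each library, chosen after the values had been seen.

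**Figure D4:**
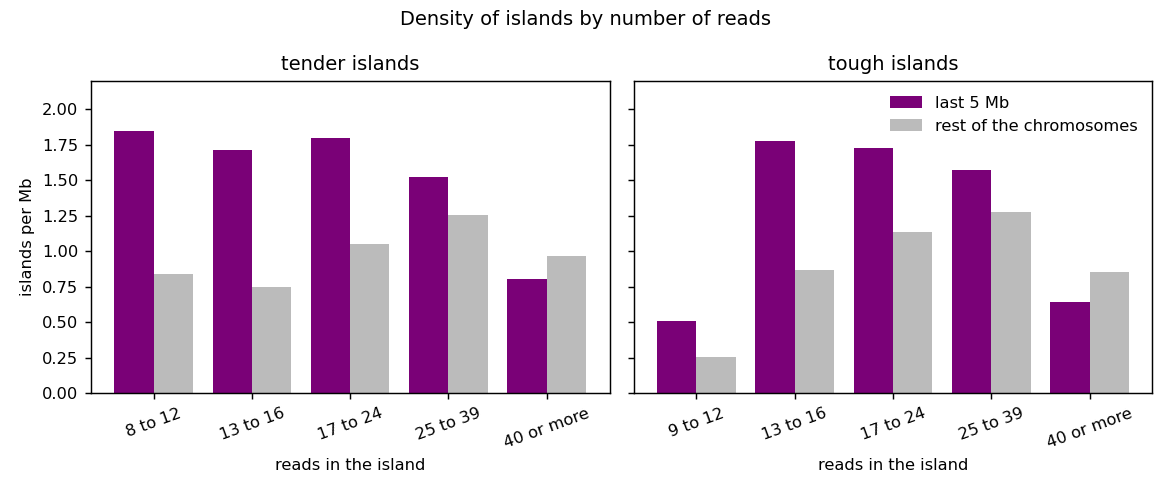
Peaks per Mb (vertical axis) by the number of reads in the peak (horizontal axis) for tender peaks (left) and tough peaks (right), at the distal ends and in the rest of chromosomes 1 to 29. The distal bars stand above those of the rest in the weakest classes, with ratios of 2.19 and 1.98, and lower than those of the rest at 40 reads or more, with ratios of 0.833 and 0.750.

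In the list of the regions with the highest summed score the distal ends were few. Of the 1000 regions of chromosomes 1 to 29 with the highest summed score, 42 were distal, or 4.2% (95% Wilson interval 3.1 to 5.6%), against 9.07% of all regions. A region called in 1 group adds only that group's score, and distal regions were called in both less often, 57.0% against 70.2%. This ranking is therefore not separate from the sharing between groups. The share of broad regions, of 5 kb or more, did not differ detectably. They made up 107 of the distal regions, 8.48% (7.06 to 10.1%), and 8.02% of the rest, against 7.91% over the whole map, with 14 chromosomes higher and 14 lower (adjusted p = 1, exact sign test).

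By summed score, to which a region called in both groups adds 2 scores, the 10 strongest distal regions were all called in both groups. The highest lay on chromosome 25 from 39417201 to 39433400, 3476 kb from the end. It was also the longest, 16200 bp, and joined 3 tender peaks with a summed score of 599.4 and 2 tough peaks with 554.6. It ranked 8th among all regions of chromosomes 1 to 29.

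The second was the opposite in shape. On chromosome 8 from 112084201 to 112084600, a region 400 bp long, or 2 windows, scored 531.4 in tender and 253.0 in tough LD. The median score per window of distal tender peaks was 5.23. With no control library named, it was not tested whether so dense a stretch reflects the mark. It ranked 25th.

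Chromosome 28 held the third and the fourth. One lay from 41653801 to 41666200 (12400 bp, scores of 368.5 in tender and 319.0 in tough LD) and the other from 43905801 to 43915400 (9600 bp, scores of 297.5 and 251.1). The fifth was on chromosome 11 from 107158001 to 107162400, 144.8 kb from the end, with scores of 327.6 and 216.9. The tender score was the higher one in each of these 5 regions, and scores of the groups are not on one scale, since the same reads score lower in the deeper tough library.

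The next 4 were on chromosome 22 (starting at 56281401 and ending at 56292400), chromosome 18 (65886801 and 65888800), chromosome 17 (71037001 and 71040200) and chromosome 29 (50229801 and 50238600), with summed scores between 465.7 and 477.7. The tenth lay 88.4 kb from the end of chromosome 10, from 104137801 to 104143400, and was the single one of the 10 with a higher score in the tough group, 242.8 against 218.2. The fifth of the longest regions, on chromosome 12 from 89001801 to 89011400, was 9600 bp long, with 20 tender reads in 1 peak and 48 tough reads in 2.

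The third question was whether the distal regions were found alike in tender and tough LD. Of the 1262 regions, 719 were called in both groups, or 57.0% (95% Wilson interval 54.2 to 59.7%), against 70.2% (69.4 to 71.0%) in the rest and 68.9% over the whole map. Called in tender only were 368, or 29.2% (26.7 to 31.7%), against 18.8% (18.1 to 19.4%) in the rest and 19.9% over the whole map. Called in tough only were 175, or 13.9% (12.1 to 15.9%), against 11.1% (10.5 to 11.6%) in the rest and 11.3% over the whole map. The lowest score was 23.2 in the tender list and 25.2 in the tough list. The same reads score lower in the deeper tough library, so a weak region can pass in tender alone. How far these unequal limits enter the shares called in 1 group was not tested.

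The lower share in both groups held almost throughout. It was lower at the distal end than in the rest on 28 of 29 chromosomes, all but chromosome 18 (adjusted p = 7.45e-07, exact sign test), by a median of 18.6 percentage points. Just inward, in the bins of 1 Mb from 5 to 9 Mb, it was 63.5, 61.8, 65.7 and 65.6%. These values lie between the distal 57.0% and the 70.2% of the rest. The share in tender only was higher on 27, all but chromosomes 1 and 18 (adjusted p = 4.64e-06, exact sign test). The share in tough only was higher on 20 (adjusted p = 0.0945, exact sign test). Among peaks scoring 2 or more times the minimum, the share in both was lower on 26 of 29 chromosomes (adjusted p = 9.23e-05, exact sign test). The share in tender only no longer passed the threshold there, with 21 higher (adjusted p = 0.0509, exact sign test). Median reads were lower at the ends in this setting too, on 23 chromosomes for tender (2 higher) and 24 for tough peaks (5 higher). Each list was cut separately, which can leave a region with 1 group. The setting therefore cannot separate sharing from peak strength.

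By chromosome, the share of distal regions called in both groups ran from 34.9% on chromosome 13 to 89.0% on chromosome 18. At the end of chromosome 18, 97 of 109 regions were shared, 9 were in tender only and 3 in tough only. Chromosome 13 had 15 of 43 shared, with 11 in tender only and 17 in tough only, and chromosome 1 had 16 of 30 shared, with 4 and 10. On these 2 chromosomes the regions called in tough only outnumbered those in tender only. At the end of chromosome 9 the reverse was seen, with 14 in tender only and 2 in tough only of 29 regions.

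**Figure D5:**
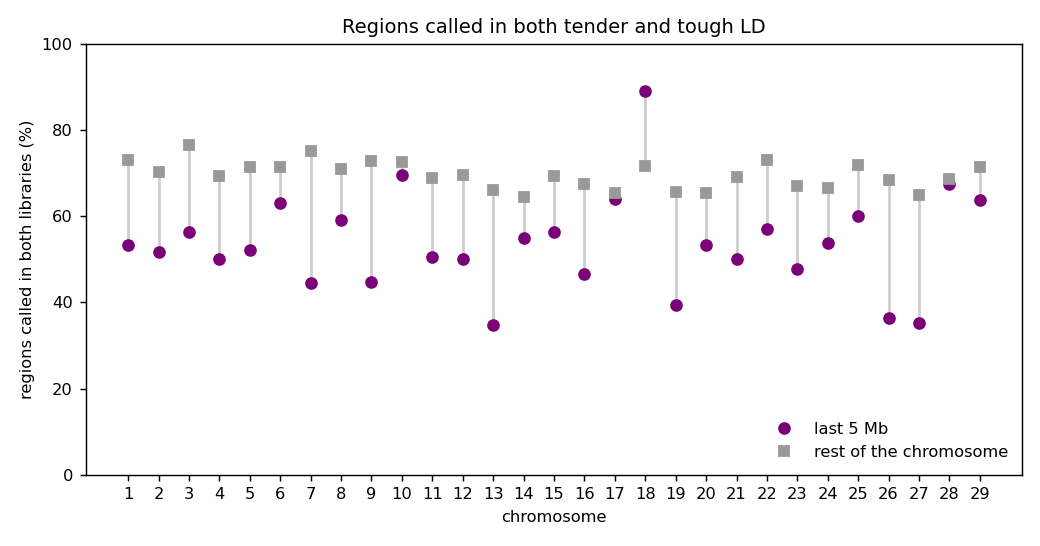
Share of merged regions called in both tender and tough LD (vertical axis, percent) in the last 5 Mb (circles) and in the rest of the same chromosome (squares), joined by a line, for chromosomes 1 to 29 (horizontal axis). The circle lies below the square on every chromosome but 18, where it is at 89.0% against 71.6%.

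The distal peaks had fewer reads, so the shares were also set side by side at like numbers of reads, in classes chosen after the values had been seen. Among tender peaks of 8 to 12 reads, 67.9% (62.1 to 73.2%) of 268 distal peaks and 62.7% (60.5 to 64.8%) of those elsewhere had no tough peak. At 13 to 16 reads the shares were 46.8% (40.7 to 53.0%) and 40.6% (38.4 to 43.0%). At 17 to 24 reads they were 23.4% (18.6 to 28.9%) and 13.9% (12.6 to 15.3%), the single class whose intervals did not overlap.

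Above that, 9 of 221 distal tender peaks of 25 to 39 reads lacked a tough peak, and 0 of 117 peaks of 40 reads or more, which allows a share of up to 3.18% by the Wilson interval. With the shares of the rest applied class by class, 309.7 distal tender peaks without a tough peak would be counted, and 368 were. For tough peaks without a tender peak the same sum was 162.5, and 175 were counted. These sums are descriptions without a test.

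Regions called in 1 group only are given next, ordered by score. The strongest in tender only, with start, end and reads, were those of chromosome 24 (61391001, 61393400, 32 reads), 17 (71731601, 71735600, 32 reads), 11 (104302001, 104303200, 29 reads), 2 (136634601, 136637000, 32 reads) and 12 (90983201, 90985000, 27 reads). In tough only they were those of chromosome 12 (89328401, 89334600, 33 reads), 19 (61745801, 61749400, 28 reads), 22 (60297601, 60300000, 25 reads), 11 (106362001, 106364600, 25 reads) and 25 (39751401, 39755600, 27 reads). They held between 25 and 33 reads, against a median of 18 for distal tender and 20 for distal tough peaks.

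Of the distal regions, 685 were a single tender peak over a single tough peak. Reads could be counted on both sides in 654 of these pairs, with 16116 tender and 15547 tough reads and medians of 22 and 21. The tender to tough ratio of these reads was 1.037, against 1.025 in the pairs elsewhere and 1.026 in all counted pairs of the map. The median log2 ratio relative to all counted pairs was -0.04 both at the distal ends and in the rest (higher on 16, lower on 10 and equal on 3 chromosomes, adjusted p = 0.385, exact sign test). Where both groups had a peak, a difference in this balance between distal ends and the rest was not detected beyond the spread between chromosomes.

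Single pairs rarely differed by a factor of 2. At least 2-fold more reads in the tender peak were found in 15 of the 654 pairs, 2.29% (1.39 to 3.75%), against 2.04% of all counted pairs of the map. At least 2-fold more in the tough peak were found in 21, 3.21% (2.11 to 4.86%), against 2.31%. Both shares were near those of the map. The direction depended on the centre, since relative to library depth 48 pairs (7.34%, against 6.05% of all counted pairs of the map) were at least 2-fold higher in tender and 2 (0.306%, against 0.759%) in tough LD. The 31 pairs without a count, 18 of them with the tender score alone above 180, are not in these numbers.

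The pair with the highest ratio had 39 tender and 14 tough reads, on chromosome 3 from 120329201 to 120331000, a ratio of 2.71 relative to all counted pairs (95% exact interval 1.44 to 5.41, counting error only). A pair on chromosome 11 from 104330001 to 104335200 had the same reads, with a tender peak of 5200 bp over a tough peak of 800 bp. The next were on chromosome 21 (66789201 and 66790800 as start and end, 33 and 13 reads), 17 (71754801 and 71757200, 55 and 23 reads) and 26 (51272801 and 51274600, 38 and 16 reads). Lengths that differ as on chromosome 11 mean that the reads were counted over unequal stretches. These pairs were picked as the highest ratios among all counted distal pairs. The interval does not allow for that choice, so it does not show a difference between the groups.

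In the other direction, a pair on chromosome 22 from 56411801 to 56415800 had 12 tender and 38 tough reads, or 3.25 times as many in tough LD relative to all counted pairs (1.66 to 6.83), over a tender peak of 2000 bp and a tough peak of 4000 bp. A pair on chromosome 24 from 58200601 to 58202600 had 16 and 43 reads over peaks of the same 2000 bp, or 2.76 times as many on the same scale (1.52 to 5.25). The remaining pairs were on chromosome 25 (38610001 and 38611800 as start and end, 11 and 25 reads), 18 (63419401 and 63424200, 19 and 43 reads) and 10 (103320201 and 103326400, 19 and 42 reads). These pairs too were picked as extremes, and their intervals do not allow for that choice.

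Within the 685 pairs the tough peak was the longer in 396, or 57.8%, and the tender peak in 223, or 32.6%, against 59.9% and 30.2% in the pairs elsewhere. The median tender peak of a pair was 2000 bp long and the median tough peak 2400 bp. Scores of the pairs had a Spearman's rho of 0.67 at the distal ends and 0.76 in the rest, a description over peaks of the same pair of libraries. Regions that joined more than 1 peak of a group were rare, 34 of the 1262 or 2.69% (1.93 to 3.74%), against 2.46% in the rest.

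The region at the very tip is the one with the last peak end in either list, and a peak of 1 group is enough to set it. Of the 29 terminal regions 12 were called in both groups, 9 in tender only and 8 in tough only, beside 57.0% in both among all distal regions, and nothing is read from this. The strongest, on chromosome 8 from 113368001 to 113370600, had scores of 194.0 in tender and 94.3 in tough LD. On chromosome 18 the terminal region, from 65991601 to 65993800, held 46 tender and 34 tough reads. At the other extreme the terminal region of chromosome 27, in tender only from 44289801 to 44291000, had a score of 23.9 and 10 reads. For chromosomes whose tip was called in 1 group only, the position of the end rests on that group's list.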

How the data were processed

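By the methods and labels, chromatin of 4 tender and 5 tough steers was pooled into 1 library per group, and the authors found the peaks with SICER, listed as version 1.1 in the submitters' processing notes, using a 200 bp window, a 400 bp gap and an E-value of 100. The deposited score of a peak adds up, window by window, the negative natural log of how probable the reads are under a Poisson background, with no control library named and no scaling to depth. Each library has peak lists of 2 kinds, on different assemblies, since the last peak end of chromosome X is at 148.8 Mb in one kind and at 87.9 Mb in the other. The first kind, with 12930 tender and 11535 tough peaks, was used here, and the second kind, with 12452 and 11395, as an alternative. The methods name bosTau4, aligned with Maq, but the lists state no assembly, and positions of the first kind should not be read as bosTau4 or as those of the map the study described.

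Reads per peak were computed from the scores within a tolerance of 2e-09, with a mean per window of 0.157 reads for tender and 0.182 for tough, a depth ratio of 1.17, for all peaks with a score of up to 180. Total reads are not given in the lists. Values of the last 5 Mb and of the rest were compared by exact two-sided sign tests over the 29 chromosomes, adjusted over 20 tests by Benjamini-Hochberg with a threshold of 0.05. Regions of 1 library are not replicates, and the p-values measure the spread between chromosomes of these libraries, not between steers. Intervals cover counting error only, and reads had no molecular identifiers. Tender and tough values were compared without a test.

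The regions, lists and tests were chosen with earlier results of these data known. Named are the 5 chromosomes with the highest and lowest density and ratio, the 5 fullest bins with ties, the 10 highest-scoring, the 5 longest and the 5 strongest regions of 1 group only, and the 5 pairs with the highest and lowest ratio of reads. Terminal regions and chromosome 9 were named after their values were seen. Alternatives were other windows, comparisons, score thresholds, merging rules and tests, each group alone, and chromosomes left out, and the other lists, the last 1 Mb, classes of reads and the removal of 5 chromosomes were added after seeing the data. The computation, tested on simulated data, used Python 3.11.15 (numpy 2.4.6, scipy 1.17.1, pandas 2.3.3, matplotlib 3.10.9). No genome or annotation of the assembly of the lists was used here, so sequences and genes were left out.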

Additional observations from a re-analysis of the deposited data

Results flagged for a closer look

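Regions in the last 5 Mb of chromosome X are shown because they are a signal in data outside the comparisons, which covered chromosomes 1 to 29. There were 6 merged regions, 4 called in both groups and 2 in tender only, or 1.2 per Mb (95% exact Poisson interval 0.440 to 2.61), against 2.40 per Mb in the rest of chromosome X. The last peak end of chromosome X lay at 148810800.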

How the results depend on the processing

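Of 218 comparisons under alternatives, 185 kept their direction and their side of the threshold, or moved by less than the counting interval. Numbers below are chromosomes on which the distal value was higher, and the cause of a change was not tested. The density of merged regions, higher on 23, no longer passed with 0.5 to 5 Mb before the end (20), against the 5 Mb just before (14), with peaks scoring 2 or more times the minimum (15), with tender peaks only (20) or tough peaks only (18), and it turned with 4 times the minimum score (11). It stayed between 22 and 23 with any 1 chromosome left out, by leave-one-out, with adjusted p from 0.00173 to 0.00707. Leaving out 1 chromosome can lower the number by at most 1, so these numbers were fixed beforehand and are no support. The leave-one-out runs are all among the 185 that kept their direction and side.

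The share in tender only no longer passed with 2 times the minimum score (21) and in the last 1 Mb without the terminal region (18). The share in both groups and the medians of score, score per window and reads passed in every setting in which they were run. They were not run against the 5 Mb just before, so it is not known whether they set the ends apart from that stretch. In the 4 bins from 5 to 9 Mb the median reads were 19 to 21 for tender and 19 to 24 for tough peaks. The distal medians were 18 and 20, and those of the rest 23 and 24. Density and covered share of tender and tough peaks newly passed with the last 2 Mb (23, 24, 23 and 23 chromosomes) and the signed-rank test (20, 18, 20 and 19). With the lists on the other assembly the tender density and covered share passed (21 each), and with the rest without the first 5 Mb the tender density passed (21). The distance to the next region passed with the last 10 Mb (7) and without the first 5 Mb (8), and the share in tough only with the last 10 Mb (22) and the signed-rank test (20). Values that had not passed turned direction for the length of tough peaks with the last 2 Mb (11), for the tough density (13), the length of tender peaks (16) and the distance (15) with 2 times the minimum score, and for the length of tender peaks without the 5 chromosomes with most regions (8).

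Pairs called higher in tender and in tough LD were 11.9% and 14.4% at a fold of 1.5. With library depth as the centre they were 7.34% and 0.306%, and by scores the tough share was 5.11%. No paired analysis was possible because each group is 1 pooled library. A median of 18 to 20 reads per distal peak limits what a single pair can show.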

Other observations

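The lists on the other assembly, made from the same libraries, place the ends of the chromosomes elsewhere. The last peak end was later on 22 chromosomes and earlier on 7, with shifts from -5.74 to 6.60 Mb. Its last 5 Mb held 1302 merged regions, 8.98 per Mb against 5.17 in the rest, and the density was higher on 24 of 29 chromosomes (adjusted p = 0.00115, exact sign test). Of these regions 56.4% were called in both groups, 28.3% in tender only and 15.3% in tough only, against 68.7%, 18.4% and 12.9% in the rest. The densities of the 29 distal ends in both kinds of lists had a Spearman's rho of 0.90, a description, since the reads are the same.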
